A study of Mus musculus with 11 samples.

Results

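The RNA of articular cartilage from 4 contralateral knees of c-FosWT mice is described here, with no comparison between groups. The members were the 4 libraries, of 11 in the whole series, that the labels place in the c-FosWT group and on the contralateral side. The mice were C57BL/6, 14 weeks old, and were killed 4 weeks after surgery on the opposite knee. That surgery was DMM, in which the medial meniscus is destabilized as a model of osteoarthritis. Of the other 7 libraries, 3 come from operated c-FosWT knees and 4 from operated c-FosDCh knees, and none of them enters the results. The labels used here name neither the alleles behind c-FosWT, nor a Cre driver these mice may carry, nor the sex of the animals, nor a sham operation of the contralateral knee. The opposite limb had been operated, so these are not knees of unoperated animals. The 4 titles name different animals, so each knee was 1 replicate, numbered 1 to 4 as in the labels.

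Articular cartilage is a thin, avascular tissue in which chondrocytes are embedded in a matrix of type II collagen fibrils and the proteoglycan aggrecan. Its surface layer makes lubricin, and its deepest layer is calcified and borders bone. Chondrocytes depend on SOX transcription factors for their identity and live at low oxygen, largely on glycolysis.

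The deposited gene counts were 15190295, 13593454, 16387548 and 17794449 in knees 1 to 4. Levels of 1 gene in different knees are given as CPM, counts per 1000000 of the library total after TMM scaling, and levels of different genes as TPM, which divides counts by exon length and scales the protein-coding genes of a library to a sum of 1000000. Values with ± are the mean and SD over n = 4 knees. A spread is the SD of log2 CPM over the 4 knees. With 4 knees of 1 group an exact sign-flip test cannot go below p = 0.125, so no p-values are given, and an order of 2 genes is described by the number of knees that show it. In bulk RNA, fewer cells of a type cannot be told apart from less RNA per cell.

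In all, 15079 genes reached 1 CPM in each of the 4 knees, of which 13038 are protein-coding. Across the 10523 genes with a mean of 10 CPM or more, log2 CPM of 2 knees correlated with Pearson's r of 0.910 to 0.966 and Spearman's rho of 0.912 to 0.968 over the 6 pairs, a description across genes that share length and base composition. The 3 genes known to collect reads of ribosomal RNA, Gm26917, Gm42418 and Gm23935, held 8.14 to 9.52% of gene counts. Mitochondrially encoded genes held 0.954 to 1.71%. The 10 most abundant genes held 17.7, 19.7, 20.5 and 19.3% of gene counts in knees 1 to 4, and 755, 678, 624 and 791 genes made up the upper 50%. Of each knee's own 30 most abundant genes, 21 were shared by all 4 knees and 41 appeared in at least 1.

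The labelled tissue was checked against its markers first. Of 12 chondrocyte markers, 11 reached 1 CPM in every knee, and the exception was Matn3, a cartilage matrilin, at 17.5, 0.744, 1.93 and 143 CPM. The summed chondrocyte markers were at 26654, 16898, 24500 and 15236 CPM. Genes of bone and marrow were present at the same time. Markers of osteoblasts and osteocytes summed to 6075, 4939, 7208 and 3939 CPM, granulocyte markers to 8109, 3584, 4219 and 11204 CPM and erythroid markers to 3223, 2989, 2656 and 7722 CPM, and all 14 erythroid, all 16 granulocyte and all 11 osteoclast markers reached 1 CPM in each knee. Skeletal muscle markers summed to 1046, 17985, 159 and 1205 CPM, so knee 2 stood far above the other knees. Levels below belong to this mixture of tissues, and the part of other cells in each gene's level was not tested.

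Matrix genes led the protein-coding transcripts. Col1a1 (Ensembl ENSMUSG00000001506, chromosome 11, 94936224 to 94953042 on GRCm38), the alpha 1 chain of type I collagen, was at 20152, 30022, 30241 and 29138 CPM in knees 1 to 4. It was lowest in knee 1 and nearly equal in the other knees. Col1a2, its partner chain, was at 11366, 16361, 16682 and 14960 CPM. Fn1, which encodes fibronectin, was at 12293, 16948, 12226 and 10178 CPM, highest in knee 2. Sparc, a collagen-binding matrix protein, was at 12539, 8421, 11337 and 7232 CPM, highest in knee 1 and lowest in knee 4. Prg4, which encodes the surface lubricant lubricin, was at 6624, 7754, 12941 and 5084 CPM and stood out in knee 3. Col2a1, the type II collagen chain that defines hyaline cartilage, was at 12746, 4629, 7998 and 6873 CPM, with knee 1 at 2.75 times the level of knee 2.

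Another 5 cartilage genes were among the 30 most abundant. Cilp, an intermediate layer protein, was at 6445, 6338, 7329 and 3032 CPM and Chad, a collagen- and cell-binding protein, at 5326, 5014, 7160 and 2155 CPM. Comp was at 4882, 4727, 4703 and 2080 CPM, Cytl1 at 3129, 3187, 5456 and 1502 CPM and Acan at 3351, 2563, 3679 and 2429 CPM. All 5 were lowest in knee 4, and all but Comp were highest in knee 3. Of all 10523 genes with a mean of 10 CPM or more, 34.9% were lowest in knee 4 and 24.8% highest in knee 3. Col10a1, the collagen of hypertrophic and calcified cartilage, was at 1605, 1256, 2262 and 1747 CPM, again highest in knee 3. Col3a1, a fibrillar collagen of soft connective tissue, ran differently, at 3491, 5502, 2087 and 7031 CPM with knee 4 highest and knee 3 lowest. Cst3, a secreted inhibitor of cathepsins, was at 2721, 2127, 3040 and 1285 CPM and Gsn, an actin-severing protein, at 2036, 2107, 2401 and 1012 CPM, both lowest in knee 4. The remaining places went to the nuclear noncoding RNAs Malat1 (20279 ± 3406 CPM) and Neat1 (2859 ± 362 CPM), the structural RNA Rn7sk, the mitochondrial ribosomal RNA mt-Rnr2 (6616, 6412, 7691 and 12158 CPM), and genes that many cell types express, such as Ahnak (3511 ± 613 CPM) and Lrp1 (3151 ± 435 CPM). Ttn, the giant protein of muscle fibres, entered the list through 1 knee, at 638, 9992, 77.8 and 619 CPM. Hbb-bs, a beta haemoglobin, was at 1559, 1493, 1330 and 3660 CPM. Only 35.7% of its 75-base windows occur in no other gene, so reads shared with Hbb-bt may be missing from it. Per length the order moved towards short transcripts: Cytl1 (15682 ± 7547 TPM), Chad (14608 ± 6075 TPM) and Sparc (12999 ± 3076 TPM) stood above Col1a2 (5976 ± 1064 TPM) and Fn1 (5545 ± 1411 TPM).

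**Figure D1:**
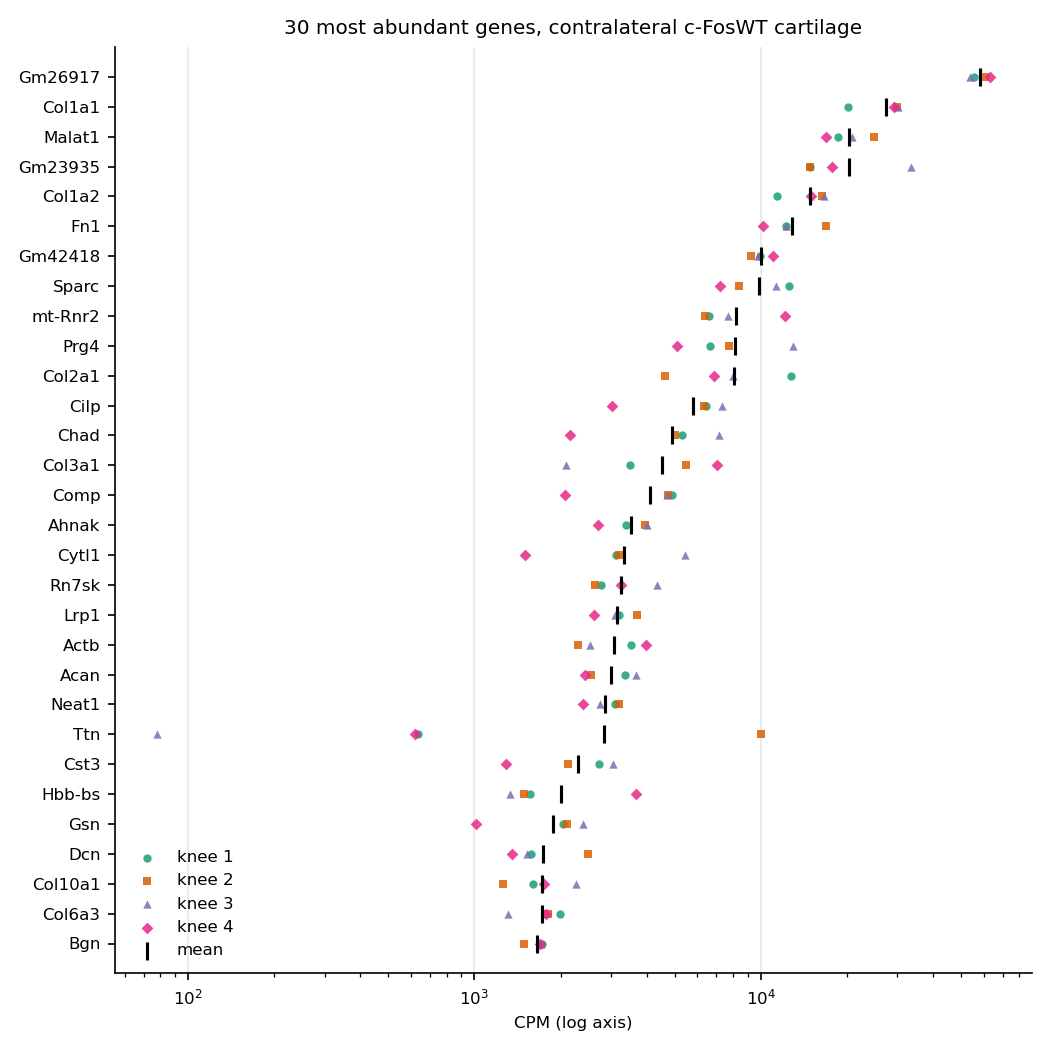
CPM of the 30 genes with the highest mean level, on a log axis; each symbol is 1 knee and the bar is the mean of 4. Col1a1 leads the protein-coding genes at 27388 CPM on average, Ttn spreads from 77.8 CPM in knee 3 to 9992 CPM in knee 2, and knee 4 is lowest for Chad, Comp, Cytl1 and Cilp.

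The promoters of the most abundant and the most variable genes were read for a TATA box, the motif that places the start of transcription at many strongly expressed, tissue-restricted genes. The letters TATAAA were searched in RefSeq windows of 300 bases (GRCm38.p6), from 250 bases before to 50 bases after each start, and a match counted on the gene's own strand when it began 20 to 40 bases before the start. Such a match was present in 2 of the 17 genes with a window among the 30 most abundant (11.8%), in 3 of 19 among the 25 most variable (15.8%) and in 0 of 22 among the 25 least variable, against 1.47% of 8141 genes at 10 CPM or more and 2.41% of all 27025 genes with a window. In larger sets the share was 5.92% (9 of 152 among the 200 most abundant protein-coding genes) and 8.11% (6 of 74 among genes with a spread of 1 or more). On either strand anywhere in the window, the shares of the first 5 sets were 17.6%, 31.6%, 4.55%, 8.89% and 15.7%, and those of the 2 larger sets 19.1% and 17.6%. These are counts of letters in small sets, and a match is not a shown binding site. The 5 stretches with a match are given because they belong to 2 abundant cartilage genes and to 3 of the genes that varied most. Each holds 60 bases of the plus strand, 5′ to 3′, with the counted motif in capitals. The Ppbp stretch holds TATAAA once more in small letters, too near the start to be counted.
Chad, chr11:94565002-94565061: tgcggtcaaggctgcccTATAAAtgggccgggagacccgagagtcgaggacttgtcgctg
Col10a1, chr10:34389936-34389995: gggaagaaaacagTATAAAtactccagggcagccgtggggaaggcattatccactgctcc
Myh4, chr11:67237767-67237826: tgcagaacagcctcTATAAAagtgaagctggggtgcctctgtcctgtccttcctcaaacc
Myh1, chr11:67200057-67200116: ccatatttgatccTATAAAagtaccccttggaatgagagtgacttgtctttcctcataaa
Ppbp, chr5:90768473-90768532: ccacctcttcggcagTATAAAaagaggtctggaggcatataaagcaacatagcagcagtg
The motif began 28 bases before the start in Chad, 32 in Col10a1 and Myh1, 31 in Myh4 and 30 in Ppbp.

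Collagen chains were compared within each knee and per length. Of 44 collagen genes, 29 reached 10 TPM, and all collagen chains together held 6.24 to 7.33% of gene counts. Col1a1 was at 20877 ± 3947 TPM, Col1a2 at 5976 ± 1064 TPM and Col2a1 at 4327 ± 1767 TPM. The ratio of Col1a1 to Col1a2 was steady, at 3.36, 3.47, 3.43 and 3.69. That of Col1a1 to Col2a1 was not, at 2.23, 9.13, 5.33 and 5.97. Type I collagen is the collagen of bone, tendon and fibrous tissue, and Col1a1 was lowest in knee 1 while osteoblast markers were lowest in knee 4. Fibroblast markers summed to 3626, 3736, 3821 and 3061 CPM, and the part of either cell type in the level of type I collagen was not tested. Col10a1 was at 2730 ± 612 TPM, and Col2a1 exceeded it in 4 of 4 knees by 1.20 to 2.69 times.

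Partner chains of collagen types VI and IV kept close ratios. Col6a1 exceeded Col6a2 by 1.61 to 1.73 times and Col4a1 exceeded Col4a2 by 1.02 to 1.16 times, in 4 of 4 knees each. Among the chains of type IX collagen, which coats type II fibrils, Col9a3 exceeded Col9a2 by 1.10 to 1.27 times. The third chain, Col9a1, did not keep step: Col9a3 exceeded it 4.23, 8.59, 11.96 and 1.37 times in knees 1 to 4, and Col9a1 itself was at 80.7, 21.6, 24.7 and 213 CPM. Of the type XI chains, Col11a2 exceeded Col11a1 by 1.96 to 2.84 times.

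Among the other matrix proteins, 1 member usually led its family. Chad, the leucine-rich protein chondroadherin, was at 14608 ± 6075 TPM and held 64.7% ± 11.7 (SD) of the TPM of 16 small leucine-rich proteins. The next were Dcn (1496 ± 497 TPM), Bgn (1352 ± 48.1 TPM) and Fmod (1316 ± 328 TPM), all regulators of collagen fibrils, and their SDs overlapped. Comp, a pentameric cartilage protein, was at 6913 ± 2314 TPM and exceeded Thbs4, the next thrombospondin, by 7.01 to 14.5 times. Prg4 was at 9446 ± 3900 TPM and exceeded aggrecan, Acan, at 2005 ± 374 TPM, by 3.45, 5.28, 6.14 and 3.65 times. By its mean, Prg2 stood between them at 2676 ± 1898 TPM, and despite its name it encodes the major basic protein of eosinophils. Prg4 exceeded Prg2 by 1.44, 4.86, 18.6 and 2.18 times in knees 1 to 4, so Prg2 was below Acan in knee 3. The link protein Hapln1, which fixes aggrecan to hyaluronan, held 98.2% ± 0.745 (SD) of its family. Aggrecan exceeded it by 3.77 to 5.15 times.

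For the enzymes that make hyaluronan there was no settled leader. Has2 was at 25.7 ± 5.38 TPM and Has1 at 22.0 ± 13.2 TPM, and Has1 was the higher in knee 2 alone. The matrilins, adaptor proteins of the cartilage matrix, changed order between knees: Matn3 led in knee 4 and Matn2 or Matn4 in the others, and the mean of Matn3 (66.7 ± 112 TPM) had an SD larger than itself. Syndecan Sdc4 exceeded Sdc3 by 2.66 to 3.37 times, glypican Gpc1 exceeded Gpc6 by 1.72 to 4.92 times, and laminin chain Lamb2 exceeded Lamc1 by 1.37 to 2.65 times. Clec3a, a cartilage lectin, was at 10357 ± 4380 TPM and Cytl1, a secreted cartilage protein, at 15682 ± 7547 TPM. Their ratio was narrow over the knees, 1.37 to 1.66.

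Of the proteases that cut matrix, Mmp9 led 23 matrix metalloproteinases at 1177 ± 166 TPM and exceeded Mmp13, the collagenase of hypertrophic cartilage, by 1.56 to 2.34 times. Mmp9 is known from osteoclasts and neutrophils, and its CPM of 823, 662, 873 and 988 stood beside osteoclast markers at 2616, 2037, 3232 and 2942 CPM. The part of either cell type in its level was not tested. Mmp13 was at 291, 213, 395 and 479 CPM. Cathepsin K, Ctsk, the collagenase of osteoclasts, was at 2364 ± 599 TPM and exceeded Ctsb by 3.80 to 7.47 times. The aggrecanases were low: Adamts5 was at 49.3 ± 18.3 TPM and Adamts4 at 7.67 ± 1.83 TPM, while the procollagen peptidase Adamts2 had the highest mean of its family, 119.5 ± 24.3 TPM. Htra4 and Htra1 changed places between knees, and 73.0% of Htra4's windows are its own. Of the inhibitors, Timp2 was at 836 ± 64.7 TPM and Timp3 at 565 ± 181 TPM. Of Timp3's 75-base windows, 64.3% occur in no other gene, and per unique length Timp3 came first with 879 TPM.

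Of the collagen-modifying enzymes, 3 families had a clear leader and the prolyl 3-hydroxylases did not. Lox, which cross-links collagen, exceeded Loxl3 by 3.03 to 5.74 times, Plod2, a lysyl hydroxylase, exceeded Plod3 by 2.95 to 4.75 times, and P4ha1, a prolyl hydroxylase chain, exceeded P4ha2 by 1.75 to 2.20 times. Crtap over P3h2 was 0.9957 to 1.77, with Crtap ahead in 3 of 4 knees. The chondroitin sulfotransferases Chst11 (211 ± 26.8 TPM) and Chst12 (198 ± 22.8 TPM) were within their SDs of each other, with Chst11 ahead in 4 of 4 knees. All 24 genes of the protein secretion machinery reached 1 CPM in each knee, with a summed level of 5980, 5305, 5593 and 5018 CPM and a median spread of 0.13, against 0.17 for all 10523 genes. Serpinh1, the collagen chaperone, was at 1345 ± 188 TPM and P4hb at 1165 ± 138 TPM.

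**Figure D2:**
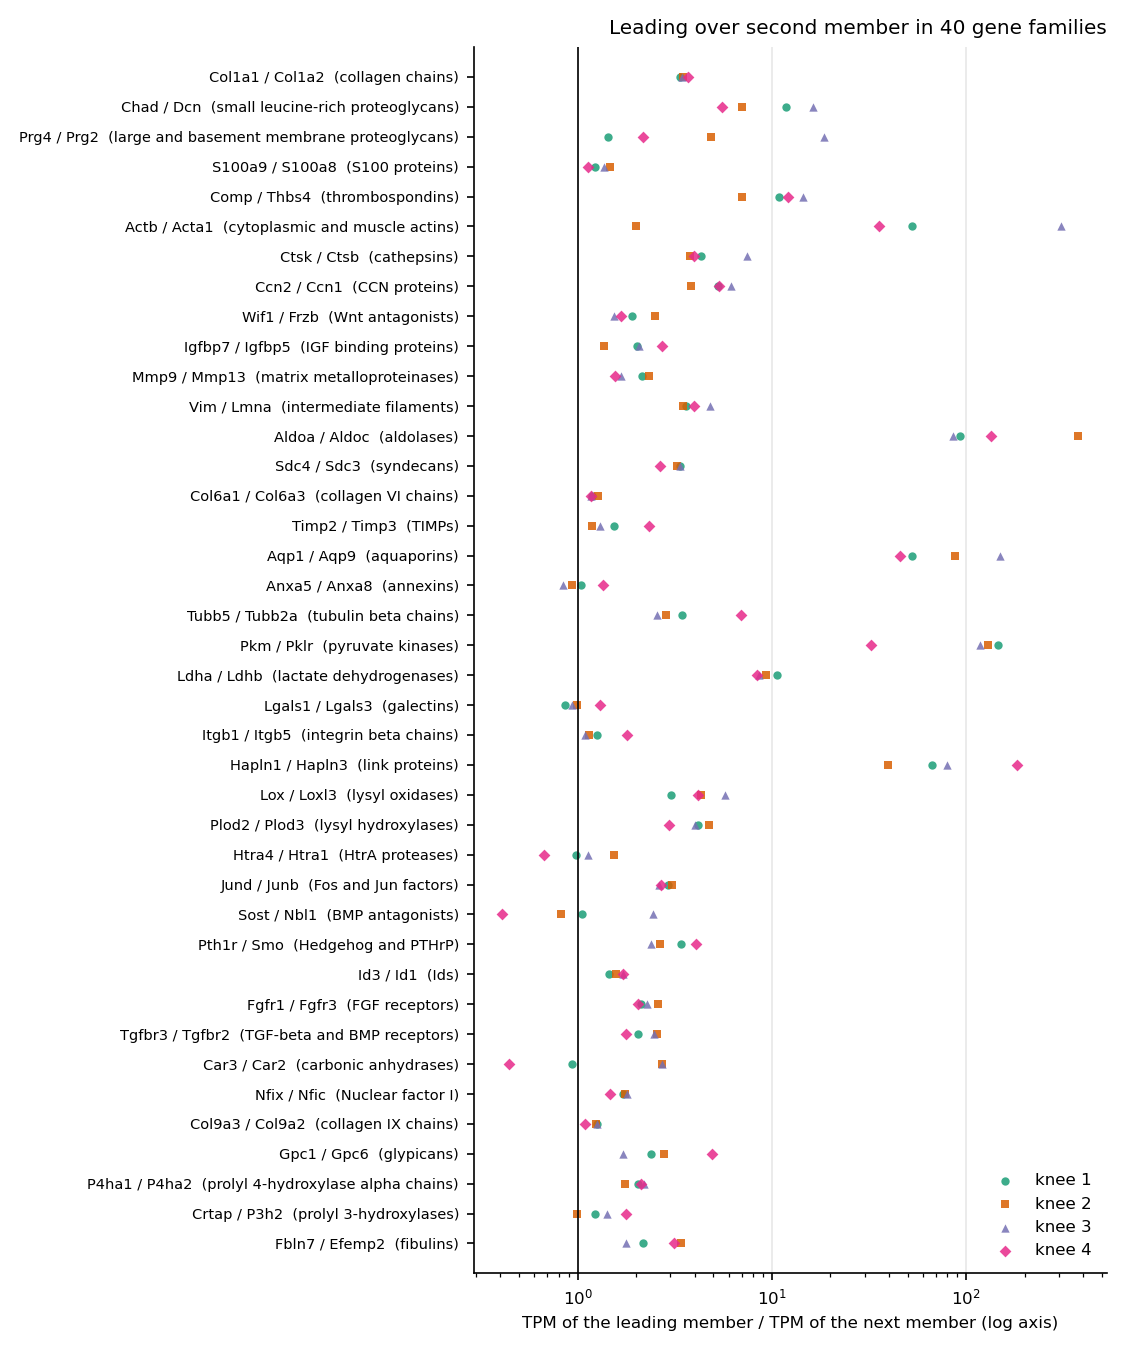
TPM of the leading member of a gene family over TPM of the next member, on a log axis, for the 40 families with the most abundant leaders; each symbol is 1 knee and the line marks equal levels. Hapln1, Aldoa, Pkm and Aqp1 lie far to the right of the line in all 4 knees, while Anxa5, Lgals1, Htra4, Sost and Car3 have knees on both sides of it.

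Over 86 families listed, 58 had the same leading member in each of the 4 knees, 22 had a leader at least 2 times the second member in each knee, and 17 had a leader with over 50% of the family's TPM in each knee. The leader changed between knees in 28 families. Dividing by the share of 75-base windows that are unique to a gene gave another leader in 7 families: Timp3, P3h2, Bmp5, Ptger1, Hoxb3, Hif1a and Thra.

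Isoforms of glucose metabolism stood at unequal levels. Slc2a1 led the glucose transporters at 134 ± 31.3 TPM and exceeded Slc2a3 by 1.20 to 5.42 times. Ldha exceeded Ldhb by 8.35 to 10.6 times, Pkm exceeded Pklr by 32.3 to 145 times, and the lactate exporter Slc16a3 had the highest mean of its family, 83.4 ± 17.1 TPM. Hk3 led the hexokinases at 122 ± 44.9 TPM and exceeded Hk1 by 1.12 to 2.34 times. Hk3 is known from myeloid cells; it was at 105, 66.8, 57.7 and 132 CPM in knees 1 to 4, where granulocyte markers were at 8109, 3584, 4219 and 11204 CPM, and their part was not tested. Hk1 exceeded Hk2 by 1.32 to 2.36 times.

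The muscle forms of 2 glycolytic enzymes were highest in knee 2. Muscle markers summed to 1046, 17985, 159 and 1205 CPM, and the part of muscle RNA in either enzyme's level was not tested. Pfkm, the muscle phosphofructokinase, was at 43.8, 223, 35.6 and 41.2 CPM. Per length its ratio to Pfkl was 0.78, 4.55, 0.631 and 1.31 in knees 1 to 4. Eno3, the muscle enolase, was at 22.7, 204, 12.6 and 24.3 CPM and exceeded Eno1 in knee 2 alone. Eno1 was at 271, 192, 219.6 and 177 CPM, with 35.7% of its windows unique. Gapdh was at 220.3 ± 27.9 TPM, below Ldha and Pkm, with 77.3% unique windows, so reads shared with its many copies may be missing from it.

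Channels, adhesion molecules and the cytoskeleton had leaders known from chondrocytes as well as general ones. Aqp1, a water channel, was at 720.4 ± 152 TPM and held 97.1% ± 1.18 (SD) of its family. The mechanosensitive channels Trpv4 (183 ± 52.9 TPM) and Piezo1 (154 ± 24.7 TPM) were within their SDs of each other, with Trpv4 higher in 3 of 4 knees. Gja1, connexin 43, led 23 connexins and pannexins at 148 ± 15.7 TPM. Itga10, the collagen-binding integrin chain of chondrocytes, had the highest mean of 18 alpha chains, 218 ± 68.9 TPM, although 69.6% of its windows are unique. It was above Itgav in 3 of 4 knees, at ratios of 1.63, 1.80, 1.58 and 0.977. It exceeded Itga11 by 1.27 to 3.72 times and Itga1 by 5.01 to 12.5 times. Itgb1, its partner, was at 495 ± 23.6 TPM, and Ddr2, a collagen receptor, at 136 ± 30.8 TPM. Actb exceeded Actg1 by 24.2 to 29.0 times, though Actg1 has 45.7% unique windows, and Vim led the intermediate filaments at 1161 ± 58.5 TPM.

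S100a9 (9405 ± 5045 TPM) and S100a8 (7621 ± 4897 TPM), neutrophil calcium-binding proteins, led the S100 family. S100a9 was at 1141, 565, 558 and 1692 CPM and S100a8 at 1230, 509, 542 and 1986 CPM, highest in knee 4 and next in knee 1. The granulocyte list, which holds both, had the same 2 knees on top. Car3, a carbonic anhydrase known from fat and muscle, was at 113, 247, 219 and 153 CPM, and Car2, known from red cells and osteoclasts, at 102, 76.8, 67.9 and 292 CPM. Per length Car3 exceeded Car2 in knees 2 and 3 and was below it in knees 1 and 4.

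The most abundant secreted signals included Wnt antagonists, a cartilage cytokine and bone proteins. Of 306 listed genes, 131 reached 10 TPM, 37 reached 100 TPM and 28 had 0 counts in all knees. Behind Cytl1 came Spp1, the bone protein osteopontin (4968 ± 1067 TPM), Ccn2, connective tissue growth factor (1918 ± 638 TPM), and the Wnt antagonists Wif1 (1408 ± 537 TPM) and Frzb (758 ± 336 TPM). Wif1 exceeded Frzb by 1.54 to 2.50 times. Sost, the osteocyte Wnt antagonist sclerostin, was at 132, 169, 316 and 69.0 CPM, highest in knee 3 and lowest in knee 4. Ucma, a cartilage protein, was at 335 ± 85.6 TPM. The galectins Lgals1 (531 ± 52.1 TPM) and Lgals3 (524 ± 46.0 TPM) were within their SDs of each other, with Lgals3 higher in 3 of 4 knees. Angptl7 was at 59.2, 249.9, 66.9 and 41.5 CPM, with knee 2 alone high.

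Ligands of the main growth factor pathways were lower. Wnt5b led 19 Wnt genes at 37.0 ± 7.43 TPM, and Fgf2 led 22 FGF genes at 62.4 ± 20.1 TPM, above Fgf1 by 1.89 to 2.52 times. Tgfb1 was at 194 ± 18.9 TPM and exceeded Tgfb3 by 1.49 to 2.13 times. Bmp1, in fact a procollagen protease, led the BMP list at 139 ± 20.1 TPM, followed by Bmp5 at 78.5 ± 27.5 TPM, of which 52.0% of windows are unique. Igf1 was at 62.9, 78.5, 44.1 and 178 CPM, highest in knee 4, whereas Igf2 stayed under 1 CPM in every knee. Vegfa was at 149.7 ± 36.6 TPM and exceeded Pdgfa by 2.25 to 3.12 times. Igfbp7 led the IGF binding proteins at 1232 ± 129 TPM.

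Of 515 receptor genes, 254 reached 10 TPM and 59 reached 100 TPM. Sdc4, a heparan sulfate proteoglycan that acts as a co-receptor, was at 938 ± 274 TPM and Lrp1, an endocytic receptor that clears matrix proteases, at 891 ± 147 TPM; the SDs of these 2 overlapped. Tnfrsf11b, osteoprotegerin, is a secreted decoy receptor for RANKL and stood in both lists at 436 ± 168 TPM. It exceeded its ligand Tnfsf11 by 22.4, 47.3, 30.6 and 14.2 times. Pth1r, the receptor for parathyroid hormone-related protein, was at 394 ± 69.1 TPM. Npr2, the receptor for C-type natriuretic peptide, was at 298 ± 108 TPM, while the gene of that peptide, Nppc, had 0 counts in 3 knees and 0.332 CPM in knee 4.

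Several receptor families had the same leader in 4 of 4 knees, but the prostaglandin and purine receptors (Ptgir and P2rx4, 3 knees each) and the steroid hormone receptors (Nr3c1, 2 knees) did not. Fgfr1 exceeded Fgfr3, the receptor known for restraining growth cartilage, by 2.13, 2.597, 2.28 and 2.04 times, and Tgfbr3, a co-receptor, exceeded Tgfbr2 by 1.77 to 2.57 times. Fzd9 led 10 Frizzled receptors at 153 ± 50.3 TPM, above Fzd7 by 1.60 to 2.53 times. Notch2 exceeded Notch3 by 3.43 to 4.37 times, with a spread of 0.066. Lgr6, a receptor for R-spondins, was at 277 ± 103 TPM and lowest in knee 4, at 398, 363, 558 and 206 CPM. The cytokine receptor chains Lifr (239.5 ± 46.4 TPM), Il6st (224 ± 26.7 TPM) and Tnfrsf1a (222 ± 18.03 TPM) were also among the 20 highest. Cd74 (606 ± 139 TPM) and Itgb2 (283 ± 86.5 TPM) are known from leukocytes. Itgb2 was at 218, 127, 123 and 225 CPM, higher in knees 1 and 4, where granulocyte markers were also higher. The part of leukocytes in the level of either gene was not tested.

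The members of the transcription factor class at 10 TPM or more had a median of 43.1 TPM, near those of receptors (42.6) and secreted signals (42.8). Of 645 genes, 382 reached 10 TPM and 65 reached 100 TPM. Jund, an AP-1 subunit, came first at 423 ± 74.7 TPM, but 52.6% of its exon length overlaps a gene of the other strand and 54.4% of its windows are unique. It was followed by Id3, an inhibitor of basic helix-loop-helix factors (377 ± 56.6 TPM), and Nr1d1, the clock repressor REV-ERB alpha (336 ± 116 TPM). Nfix (281 ± 58.1 TPM), Trps1, a GATA-type repressor of chondrocyte maturation (259 ± 53.0 TPM), and Zbtb20 (214 ± 41.2 TPM) also stood among the highest. Trps1 was at 779, 747, 756 and 488 CPM, lowest in knee 4. Xbp1 and Atf4, factors of the secretory stress response, were nearly flat at 152, 150.2, 154 and 142 and 111, 103, 104 and 109.5 CPM.

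Sox9, the factor that sets chondrocyte identity, was at 183 ± 26.8 TPM, with 162, 141, 178 and 125 CPM in knees 1 to 4. It exceeded Sox5 by 2.41 to 3.92 times. Sox5 (62.8 ± 16.7 TPM) and Sox6 (62.1 ± 2.04 TPM), its partners, were level in knees 1 to 3, at ratios of 1.12, 1.16 and 1.10, and at 0.639 in knee 4, where Sox5 was lower. Runx2, the factor of hypertrophy and bone, and Runx1 were within their SDs of each other (115 ± 14.8 and 110.4 ± 21.3 TPM). The oxygen-sensing factors Epas1 (225 ± 53.4 TPM) and Hif1a (214 ± 36.5 TPM) each led in 2 knees. Sp7, an osteoblast factor, was at 198 ± 39.7 TPM. Rarg led the retinoid receptors, above Rxra by 1.52 to 1.85 times and Rara by 2.17 to 3.60 times.

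The Hox genes, which record position along body and limb, were unevenly expressed. Of 11 HoxA genes 7, of 9 HoxC genes 6, of 9 HoxD genes 2 and of 10 HoxB genes 0 reached 10 TPM. Hoxa10 (43.5 ± 3.76 TPM) led HoxA in 4 of 4 knees, Hoxc6 (65.4 ± 12.2 TPM) and Hoxc10 (54.4 ± 9.99 TPM) led HoxC, and Hoxd8 (38.2 ± 12.5 TPM) and Hoxd9 (33.9 ± 11.9 TPM) led HoxD. The genes at the distal end of 2 clusters were near 0, with Hoxd13 at 0.211 ± 0.199 TPM and Hoxc13 at 0.158 ± 0.0446 TPM, while Hoxa13 was at 7.88 ± 3.88 TPM.

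Clock and handling-response genes were part of this baseline. All 18 clock genes reached 1 CPM in each knee, with sums of 1614, 1836, 2168 and 1439 CPM. Of the 17 at 10 CPM or more, 11 were highest in knee 3, against 24.8% of all 10523 genes. Nr1d1 exceeded Arntl, the activator it represses, by 23.1, 36.8, 47.8 and 29.9 times per length. Times of death are not given in the labels. Of 29 immediate early and stress genes found, 28 reached 1 CPM in each knee. Fos was at 17.8, 25.9, 22.9 and 16.3 CPM, Jun at 28.7, 37.9, 28.6 and 25.4 CPM and Egr1 at 63.6, 72.5, 100.2 and 46.9 CPM, while the heat shock genes Hspa1a and Hspa1b, which are close copies, stayed between 2.65 and 6.59 CPM. Per length, Jund exceeded Junb by 2.61 to 3.05 times.

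**Figure D3:**
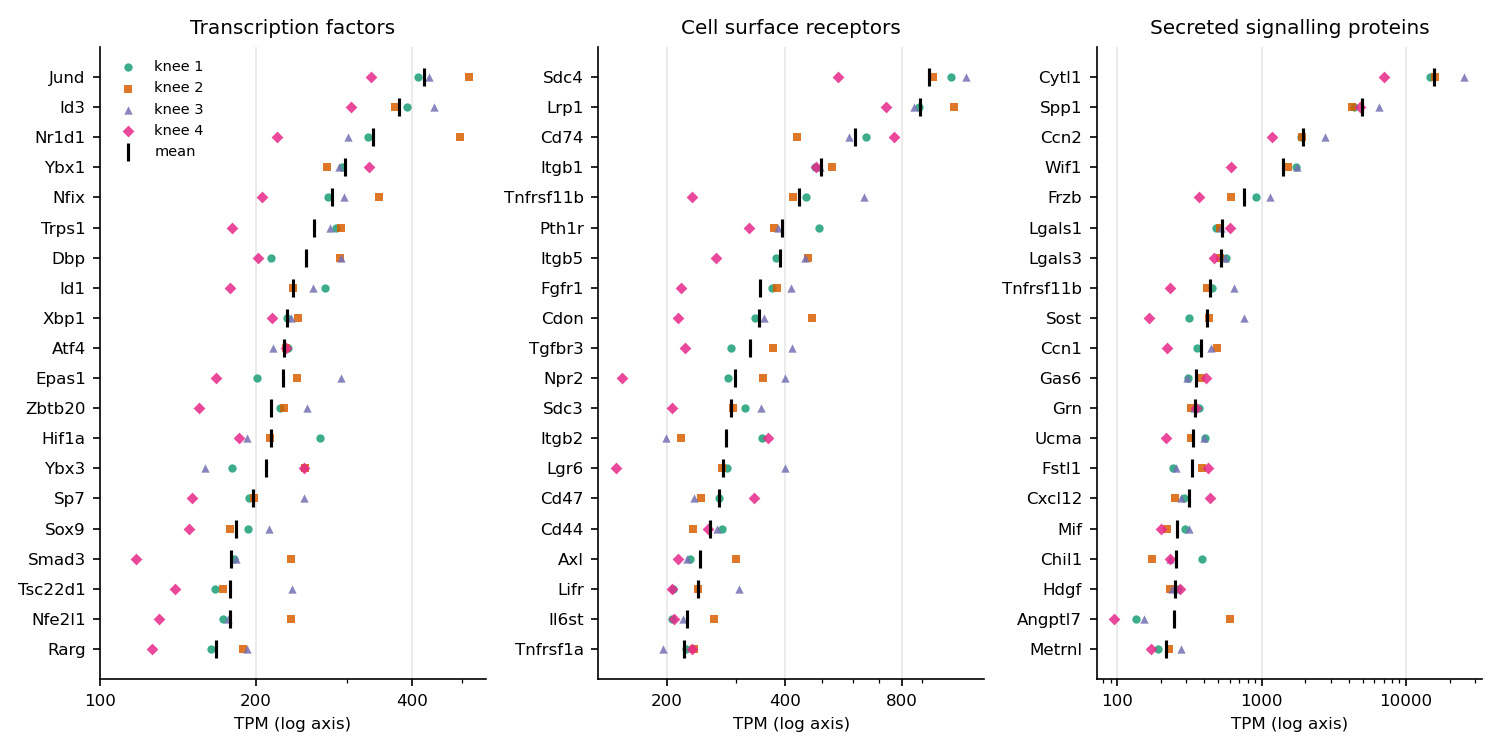
TPM of the 20 most abundant transcription factors, receptors and secreted signals, on log axes that differ between panels; each symbol is 1 knee and the bar is the mean of 4. Cytl1 leads the secreted signals at 15682 TPM on average, and knee 4 is lowest for Jund, Id3, Nr1d1, Sdc4, Lgr6 and Wif1 but highest for Ybx1 and Cd74.

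MicroRNA genes lie inside many of the expressed genes. Of 1005 hairpins in the RefSeq table (GRCm38.p6), 450 lie within 413 genes of 10 CPM or more on the same strand. Mature microRNAs were not measured in these poly(A) libraries, so host levels say nothing direct about them. The sequences of 6 are shown because miR-140 is known as a cartilage microRNA and because the other hosts carry 2 groups with a shared seed. The seed, bases 2 to 8, is in capitals.
mmu-miR-140-3p: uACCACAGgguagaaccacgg
mmu-let-7f-5p: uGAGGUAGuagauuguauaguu
mmu-miR-98-5p: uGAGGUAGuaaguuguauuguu
mmu-let-7g-5p: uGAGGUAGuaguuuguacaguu
mmu-miR-26a-5p: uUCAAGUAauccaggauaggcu
mmu-miR-26b-5p: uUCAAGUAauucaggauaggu
The host of miR-140 is Wwp2, a ubiquitin ligase gene of cartilage, at 978, 842, 788 and 494 CPM. Huwe1, also a ubiquitin ligase gene, hosts let-7f and miR-98 at 594, 620.4, 606 and 548 CPM with a spread of 0.077. Wdr82 hosts let-7g at 76.0 ± 4.32 CPM. The miR-26 group lies in 3 related phosphatase genes: Ctdsp2 at 292 ± 49.7 CPM and Ctdspl at 163 ± 54.4 CPM for miR-26a, and Ctdsp1 at 96.7 ± 4.08 CPM for miR-26b.

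Most genes varied little over the 4 knees. The median spread of the 10523 genes with a mean of 10 CPM or more was 0.17 in log2 CPM, against 0.059 from counting alone, and 9614 of them (91.4%) had a spread under 0.5. A spread of 1 or more was reached by 102 genes, of which 12 were highest in knee 1, 57 in knee 2, 5 in knee 3 and 28 in knee 4. Of all 10523 genes, 15.2, 24.98, 24.8 and 35.1% were highest in knees 1 to 4. Genes at least 3 times above every other knee numbered 2, 57, 2 and 14 in knees 1 to 4. Secreted signals had a higher median spread (0.39) than receptors (0.26), transcription factors (0.21) and ribosomal protein genes (0.20).

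With predicted and clone-based names left out, 20 of the 25 most variable genes were highest in knee 2, against 24.98% of all 10523 genes. Of these 25, 13 were on the skeletal muscle list. Myh4, a fast myosin heavy chain, was at 46.0, 1595, 8.89 and 149 CPM, Atp2a1, the muscle calcium pump, at 86.8, 1868, 12.3 and 99.6 CPM, and Ckm, muscle creatine kinase, at 20.7, 608, 2.98 and 43.4 CPM. All 18 muscle markers with a mean of 10 CPM or more were highest in knee 2 and lowest in knee 3. Of all 10523 genes, 24.4% were lowest in knee 3. With knee 2 left out, 9 of the 25 most variable genes were still on the muscle list, with knee 1 or knee 4 above knee 3. Without knee 2, 15 of the 25 remained in the ranking and 88 genes had a spread of 1 or more.

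Xist, the noncoding RNA that silences 1 X chromosome in female cells (chromosome X, 103460366 to 103483254 on GRCm38), was at 4.03, 86.6, 0.559 and 0.276 CPM. Its spread, 3.50, was the largest among genes at 10 CPM or more, predicted and clone-based names left out. The Y-linked genes were level in the same knees. Ddx3y was at 69.0, 68.8, 70.5 and 73.1 CPM, Eif2s3y at 43.1, 46.1, 41.6 and 42.1 CPM, Kdm5d at 52.9, 55.5, 54.1 and 50.2 CPM and Uty at 57.1, 51.3, 54.9 and 55.2 CPM. Knee 2 thus held Xist RNA together with as much Y-linked RNA as the other knees, and it was also the knee with the most muscle RNA. Whether RNA of another animal or tissue had a part in this was not tested. The Y-linked genes were chosen after the values of Xist had been seen.

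Matn3 and Col9a1 were the most variable cartilage genes. Matn3 was at 17.5, 0.744, 1.93 and 143 CPM and Col9a1 at 80.7, 21.6, 24.7 and 213 CPM, both highest in knee 4, next in knee 1 and low in knees 2 and 3. Epyc (0.91, 1.93, 0.435 and 6.52 CPM), Cnmd, which encodes chondromodulin (68.7, 37.2, 51.8 and 109 CPM), Panx3, a channel of hypertrophic chondrocytes (27.1, 14.1, 19.6 and 54.5 CPM), and Matn1 (1.17, 0.521, 1.37 and 2.27 CPM) were also highest in knee 4. Most other cartilage genes ran the other way. Of the 30 members of the cartilage list at 10 CPM or more, 18 were lowest in knee 4, 12 were highest in knee 1 and 12 in knee 3. The list summed to 53396, 43762, 59829 and 30658 CPM, and its median spread was 0.49. Of all 10523 genes, 34.9% were lowest in knee 4, 15.2% were highest in knee 1 and 24.8% in knee 3.

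The same knee was highest in several genes outside the cartilage list. Sfrp2, a Wnt modulator of connective tissue, was at 5.92, 2.68, 6.65 and 60.2 CPM, Car12 at 4.36, 7.44, 2.98 and 28.2 CPM, Mmp3 at 37.2, 23.6, 9.01 and 76.5 CPM and Igf1 as given above. Knee 4 was also highest for all 14 erythroid markers, 15 of 16 granulocyte markers and all 12 endothelial markers of 10 CPM or more, against 35.1% of all 10523 genes. It was lowest for Lgr6, Npr2, Wif1 and Frzb.

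Blood cell genes formed separate patterns. Ppbp and Tubb1, genes of platelets and megakaryocytes, were at 170.3, 2.603, 29.0 and 179 CPM for Ppbp and 37.3, 0.372, 4.91 and 31.7 CPM for Tubb1, high in knees 1 and 4. Gp5, a platelet glycoprotein, followed at 23.7, 1.64, 4.10 and 24.4 CPM. Genes of eosinophils were highest in knee 1 and lowest in knee 3, with Epx at 208, 70.1, 27.5 and 136 CPM and Prg2 at 899.7, 312, 136 and 456 CPM. Among antibody genes, Igkv8-30 was at 59.3, 0.223, 0.249 and 1.16 CPM and Ighg2c at 61.0, 8.18, 0.124 and 19.9 CPM, so both were highest in knee 1. B cell markers summed to 1409, 807, 727 and 658 CPM, highest in knee 1. Of the 12 with a mean of 10 CPM or more, however, 8 were highest in knee 2, against 24.98% of all 10523 genes.

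Knee 3 was highest for most bone markers and for the sum of the superficial zone list. Msmp, a small secreted protein gene, was at 138, 57.1, 665 and 61.9 CPM, but all of its exon length overlaps a gene of the other strand and the counting strand is not known. It was highest in knee 3, as was Bpifb1 at 5.72, 0.446, 45.7 and 3.65 CPM. Sums of the superficial zone list were 18192, 19532, 25894 and 12097 CPM and of the deep and calcified zone list 9134, 7215, 10809 and 6941 CPM. Of the 14 superficial zone genes of 10 CPM or more, 6 were highest in knee 3, 5 in knee 2 and 3 in knee 4, so the members did not share the order of the sum. Of the 16 deep zone genes, 8 were highest in knee 3 and 10 lowest in knee 4. Of 13 osteoblast and osteocyte markers at 10 CPM or more, 10 were highest in knee 3. Among them was Dmp1, an osteocyte matrix protein, at 151, 171, 294 and 136 CPM. Of all 10523 genes, 24.98, 24.8 and 35.1% were highest in knees 2, 3 and 4, and 34.9% were lowest in knee 4.

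The remaining lists varied less or were low. Macrophage markers summed to 1961, 1391, 1393 and 2361 CPM, endothelial markers to 397, 447, 425 and 580.5 CPM, smooth muscle and pericyte markers to 1134, 1359, 1170 and 920.4 CPM and adipocyte markers to 303, 620.4, 586 and 524 CPM, with knee 1 lowest for the last. Tendon and ligament markers summed to 3783, 3868, 3369 and 3726 CPM and Schwann cell and nerve markers to 308, 289, 342 and 223 CPM. T and NK cell markers summed to 46.8, 27.0, 37.7 and 58.4 CPM, and 8 of the 14, Cd3d, Cd3e, Cd3g, Cd8b1, Gzma, Klrb1c, Ncr1 and Trac, were under 1 CPM in at least 1 knee. Hyaluronan and link genes summed to 1721, 1360, 1744 and 1332 CPM, glycolysis and lactate genes to 3586, 3945, 3207 and 2706 CPM, immediate early and stress genes to 1228, 1339, 1315 and 1129 CPM, and antioxidant and metal-binding genes to 2988, 3142, 3136 and 3329 CPM. Of the 17 glycolysis genes, 11 were lowest in knee 4 and 8 highest in knee 1. Of the 18 antioxidant genes of 10 CPM or more, 10 were highest in knee 4. Of all 10523 genes, 34.9% were lowest in knee 4, 15.2% highest in knee 1 and 35.1% highest in knee 4. Fibrillar collagens summed to 53305, 61927, 62311 and 63086 CPM, with knee 1 lowest.

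**Figure D4:**
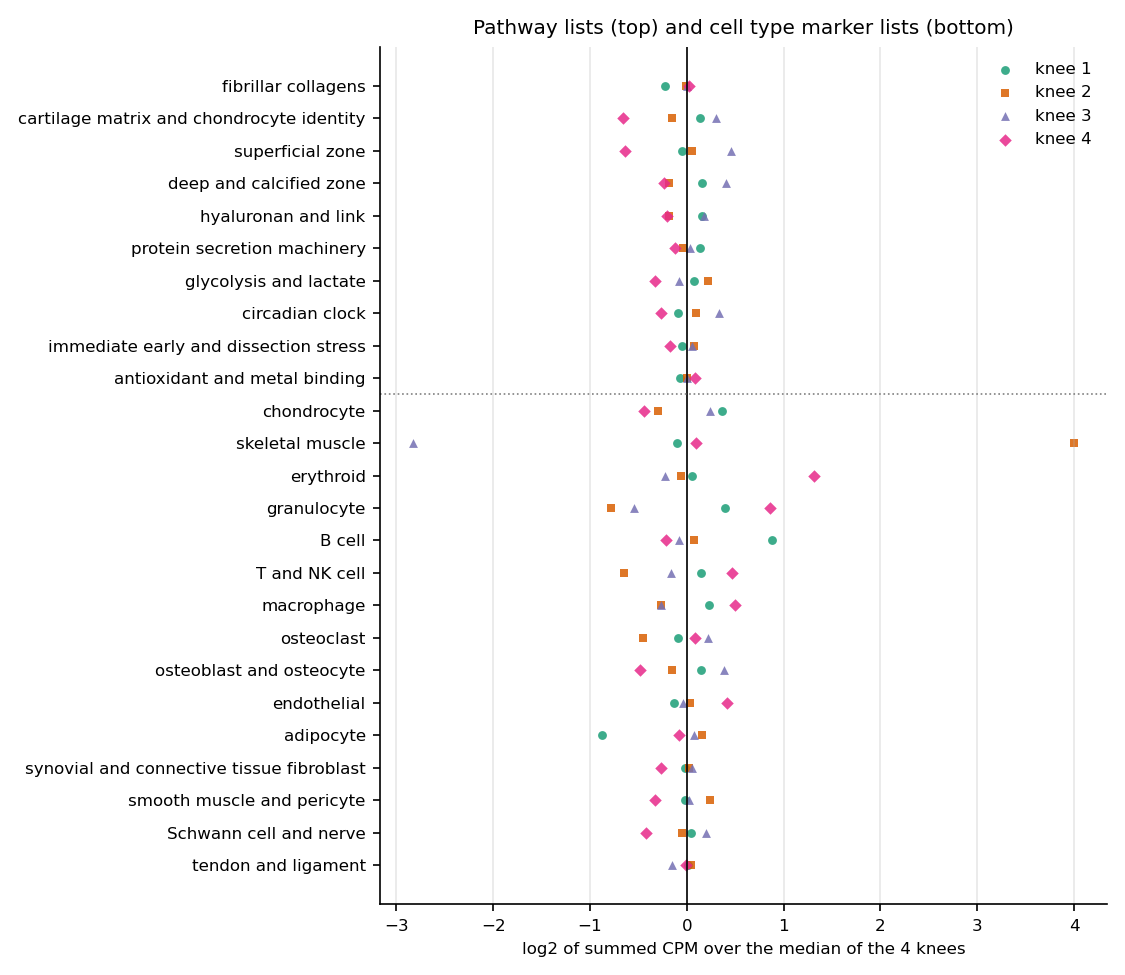
Summed CPM of each list in each knee, as log2 over the median of the 4 knees; pathway lists are above the dotted line and cell type marker lists below it. Skeletal muscle spans the widest range, with knee 2 high and knee 3 low, erythroid and granulocyte markers are highest in knee 4, and fibrillar collagens lie close together.

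The 25 least variable genes had spreads of 0.0052 to 0.017, all under what counting alone gives for them (0.017 to 0.066), so their order has no meaning. They included Xrn2, a ribonuclease (64.2, 64.7, 64.3 and 64.4 CPM), Ltbr, the lymphotoxin beta receptor (43.4, 43.4, 43.3 and 42.8 CPM), Ctbp2, a corepressor (35.1, 34.6, 34.8 and 34.9 CPM), Cdk7, a kinase of transcription (30.2, 30.9, 30.8 and 30.6 CPM), and Hsp90ab1, a chaperone (480.2, 471, 471 and 470.0 CPM). In all, 871 of the 10523 genes had a spread under the counting value. A ranking of the 200 most abundant protein-coding genes alone, added after the data were seen, held the smallest spreads for Hsp90ab1 (0.014), Ogt (0.023), Itgb1 (0.029) and Canx (0.029). Of matrix genes in that ranking, Hspg2, the proteoglycan perlecan, had a spread of 0.065 at 1303, 1339, 1212 and 1328 CPM, and Timp2 of 0.07. Bgn was the steadiest of the 30 most abundant genes, with a spread of 0.095. Actb, a common reference gene, had a spread of 0.38 at 3521, 2298, 2525 and 3984 CPM, and Gapdh of 0.15.

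**Figure D5:**
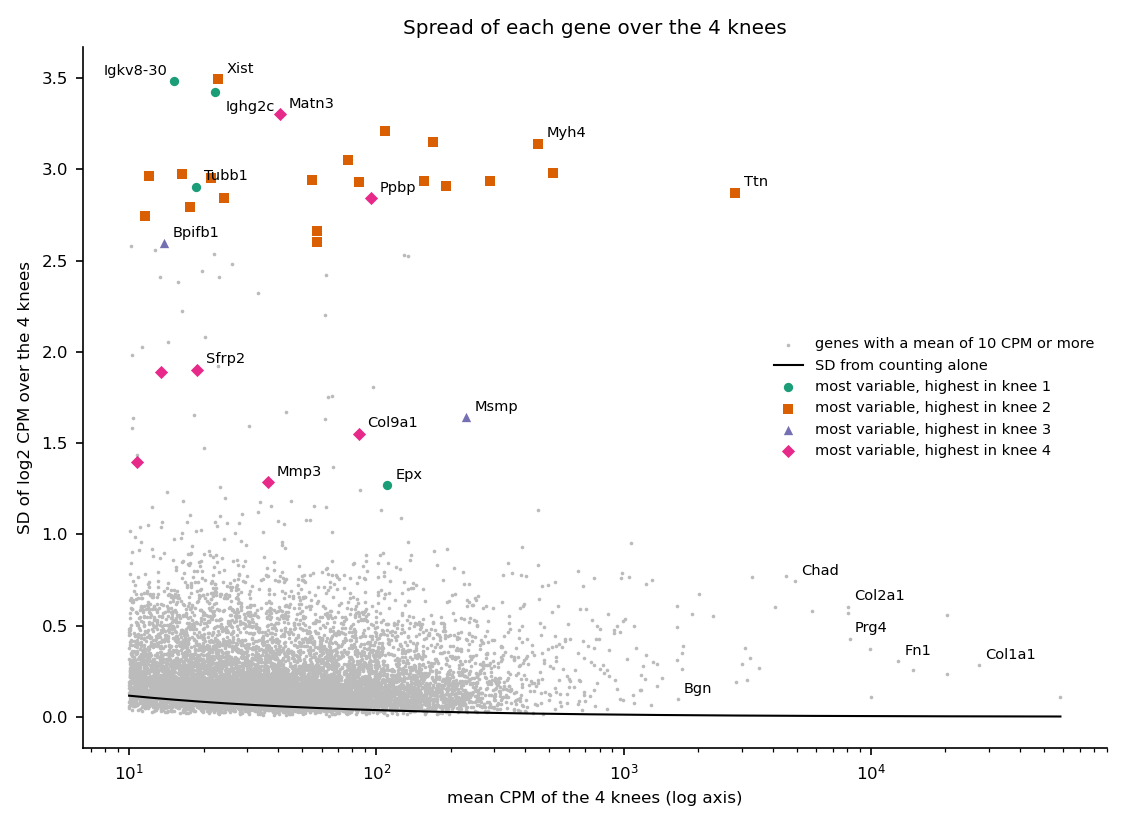
SD of log2 CPM over the 4 knees against mean CPM, on a log axis, for the 10523 genes with a mean of 10 CPM or more; coloured symbols mark the 25 most variable genes, and those ranked so without knee 2, by the knee in which they were highest, and the line is the SD from counting alone. Most genes lie under 0.5, muscle genes such as Myh4 (3.14) and Ttn (2.87) stand far above them, and Col1a1, Fn1 and Bgn combine high levels with spreads under 0.5.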

How the data were processed

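The authors deposited raw gene counts, 1 file per library, whose row layout is that of STAR gene counts. Per the labels' protocols, dissected cartilage gave directional poly(A) libraries of single 75-base reads, mapped with STAR. The submitters' processing notes name STAR 2.6.1a, RSEM, bcl2fastq 2.19.1.403 and GRCm38. The annotation release and counting strand were not given in these sources.

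Of all reads, 17.6, 26.3, 15.1 and 11.1% were unmapped in knees 1 to 4, so knee 2 had the most. A further 6.79 to 8.66% were multimapping, 33.2 to 38.3% without a feature and 0.625 to 0.823% ambiguous. These 4 rows were removed, and gene counts were 38.0, 33.1, 38.9 and 41.1% of reads in knees 1 to 4, lowest in knee 2. Of 55421 identifiers, 55240 matched GENCODE M21, which gave merged exon lengths for TPM. CPM used TMM sizes (edgeR 4.0.16, factors 0.982 to 1.02), and log2 CPM a prior count of 2. The 4 libraries differed beyond sampling noise (chi-square per degree of freedom 31.0 to 75.2 over the 6 pairs). Uniqueness is the share of 75-base windows, taken every 10 bases of the longest transcript, found in no other gene.

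Named were the 30 most abundant genes, family leaders and runners-up, the 20 highest factors, receptors and secreted signals, the 25 most and least variable genes with and without knee 2, and members of the lists. Exceptions are stated. Members, lists and rules were chosen with earlier results of these data known. The ranking by spread was tested on simulated data with known changes in 1 knee and a dispersion of 0.02 for every gene. Of 50 genes changed 2 times, 58% were among the 200 largest spreads, and 100% of those changed 4, 8 or 16 times were. A spread of 1 was reached by 0% of genes changed 2 times, 58% at 4 times and 100% at 8 and 16 times. Alternatives were library totals, DESeq2 1.42.0 size factors, other thresholds, lengths and prior counts, and each knee left out.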

Additional observations from a re-analysis of the deposited data

Results flagged for a closer look

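In each of 292 results, the 4 knees were checked for 1 knee whose gap to the nearest of the others, as a share of the whole range, exceeded Dixon's critical value. Chance gives such a gap in about 5% of groups of 4 when values are independent and normally spread, and the 47 found here share knees, so they are not 47 separate events. The results checked also include genes picked because they varied most over these knees. That choice favours such gaps, so 47 of 292 cannot be compared with 5%. Values below are CPM of the knee that stood apart.

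Knee 2 stood highest in 26 of the 47. The summed skeletal muscle markers were at 17985 CPM there. The single genes of muscle or known from it were Ttn (9992), Pfkm (223), Scn4a (48.6), Eno3 (204), Acta1 (658), Myh1 (391), Ckm (608), Myh4 (1595), Pvalb (275), Atp2a1 (1868), Klhl31 (59.4), Actn2 (41.6), Myoz1 (78.0), Myl1 (193), Neb (1023), Ryr1 (550.4), Actn3 (304), Myom2 (84.7), Mb (63.2), Tnnc2 (38.2), Mybpc2 (201), Mylpf (203). Knee 2 was also alone at the top for Angptl7 (249.9), Aldoa (950.2), a glycolytic enzyme abundant in muscle, and Xist (86.6). Bgn was alone at the bottom in knee 2 (1496). The part of muscle RNA in these values was not tested.

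Knee 4 stood apart in 12. It was highest for the summed erythroid markers (7722), the summed haemoglobins (5660), Hbb-bs (3660), Matn3 (143), Pklr (9.51), Car2 (292) and Sfrp2 (60.2). It was lowest for Comp (2080), Trps1 (488), Fzd9 (36.7), P3h2 (83.1) and Anxa8 (171). Pklr is the pyruvate kinase of red cells, and Car2 is a carbonic anhydrase known from red cells and osteoclasts. Both were highest in knee 4, which also had the highest erythroid markers. Osteoclast markers were at 2942 CPM there, against 2616, 2037 and 3232 CPM in knees 1 to 3. Knee 4 was the highest knee for 35.1% of genes with a mean of 10 CPM or more. The part of red cells or osteoclasts in these levels was not tested.

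Knee 3 was highest for Gm23935 (33528), Vim (1194), Bpifb1 (45.7) and Msmp (665). Knee 1 was highest for Igkv8-30 (59.3) and Ighv1-39 (26.0), which are antibody variable segments, and lowest for the summed fibrillar collagens (53305) and Col1a1 (20152).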

How the results depend on the processing

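Of 77 recalculated values, 66 stayed within the limits set for a stable value and 11 did not. The limit was 1 SD over the knees for the share of the 10 most abundant genes and the number making up the upper 50%. For the median spread it was 1 SD of the values with each knee left out, so those values were judged against their own SD. For the other counts it was 1.5 times. Without Gm26917, Gm42418 and Gm23935, the 10 most abundant genes held 13.5% of counts in place of 19.3%, and 973.2 genes in place of 712 made up the upper 50%. Per kb over protein-coding genes the 10 highest held 12.8%. With TPM scaled over all genes, 245 transcription factors, 153 receptors and 80 secreted signals reached 10 TPM, in place of 382, 254 and 131, because noncoding RNA then shares the total. Genes of 1 CPM or more had a median spread of 0.21 and 400 genes with a spread of 1 or more, in place of 0.17 and 102, and 35 genes of 50 CPM or more had one. Library totals and DESeq2 size factors gave 103 and 102. Leaving out each knee in turn gave a median spread of 0.1289 (without knee 4) to 0.1798, 88 to 150 genes with a spread of 1 or more, and 59 to 67 families with 1 leader. By edgeR's dispersion 23 of the 25 most variable genes were kept, by the coefficient of variation 21, and without knee 2, 15. Per unique length, added after the data were seen, 55 families kept 1 leader. No paired analysis was possible because the 4 libraries form 1 group. The number of knees limits every spread, and genes with low unique shares, such as Gm42418 (6.8%) and Hba-a2 (16.7%), have levels that depend on how shared reads were counted.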
